A study of Rattus norvegicus with 304 samples.

Results

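Ahr, the gene of the aryl hydrocarbon receptor, and Arnt, the gene of its dimer partner, were followed as 2 of the 50 genes that the series measured by quantitative PCR in rat liver. They were taken as the rows named Ahr or Arnt in the deposited fold change tables, which hold 108 values of these genes: Ahr has 72, from the OpenArray (a chip that runs very small PCR reactions in parallel) and the 7900HT (a plate-based real-time PCR machine), and Arnt has 36, all from the 7900HT. The liver RNA came from male rats of 10 to 12 weeks that received 1 oral dose of TCDD, the most potent dioxin, or of the corn oil vehicle. Han/Wistar rats, the TCDD-resistant strain, were taken at 1.5, 3, 6, 10, 19, 96, 240 and 384 h after TCDD at 100 µg/kg, at 19 h after 0.001, 0.01, 0.1, 1, 10, 100, 1000 and 3000 µg/kg, and at 1.5, 19, 96, 240 and 384 h after corn oil. Long-Evans rats, the sensitive strain, were taken at 3, 6, 10, 19, 96 and 240 h after 100 µg/kg, at 19 h after 0.001, 0.01, 0.1, 1, 10, 50, 100 and 1000 µg/kg, and at 19, 96 and 240 h after corn oil. Each platform has 36 such groups of 3 to 7 rats, and 150 sample titles are shared by both, so the platforms are not independent.

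The receptor waits in the cytosol in a complex with the chaperone HSP90. A ligand such as TCDD sends it to the nucleus, where it pairs with ARNT, and the pair binds the dioxin response element of genes such as Cyp1a1. ARNT also pairs with other proteins, among them the hypoxia-inducible factors, and AHRR and TIPARP act back on the receptor as repressors. Han/Wistar rats are known to carry an altered receptor whose transactivation domain is shortened by a splice site mutation, whereas Long-Evans rats carry the full-length form; the labels give the strain but no genotype.

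Each value below is 1 number per gene and group in the authors' deposited table, taken as the log2 ratio to the strain's own 19 h corn oil group, where every gene is 0. No header states the log base. A value of 1 thus means a doubling, and levels cannot be compared between strains or genes. The spread between rats and the depth behind a value are unknown, because the columns of single rats could not be tied to samples, and all tests below compare groups. In bulk liver RNA fewer cells of a type and less RNA per cell cannot be told apart. None of 14 marker genes fixed for hepatocytes and for other liver cells was on either platform, so the tissue label could not be checked.

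The promoters are shown because the pair that these 2 genes encode acts on promoters through the dioxin response element. They are the 250 bases before the annotated start in RefSeq (build GRCr8), on the gene's own strand, with the element's core GCGTG in capitals where either strand holds it. The Ahr window lies on the minus strand at chr6:57998902-57999151 and the Arnt window on the plus strand at chr2:185686453-185686702.
Ahr: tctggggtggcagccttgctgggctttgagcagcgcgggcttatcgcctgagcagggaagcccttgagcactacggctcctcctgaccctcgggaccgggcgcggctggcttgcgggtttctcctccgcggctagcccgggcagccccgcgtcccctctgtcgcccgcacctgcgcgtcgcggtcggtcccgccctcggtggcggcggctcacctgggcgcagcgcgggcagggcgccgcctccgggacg
Arnt: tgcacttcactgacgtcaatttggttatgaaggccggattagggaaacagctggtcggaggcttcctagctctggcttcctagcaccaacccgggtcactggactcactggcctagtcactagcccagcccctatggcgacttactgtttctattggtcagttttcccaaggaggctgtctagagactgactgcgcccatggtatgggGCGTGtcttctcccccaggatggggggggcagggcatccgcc
The Ahr window holds no core on either strand, and the Arnt window holds 1, on the gene's strand, with its first base 42 bases before the start. The longer form TNGCGTG, which contains the core, is in neither. Of 33469 RefSeq promoter windows of this length, 25.9% hold the core and 4.09% the longer form. Among the measured genes of the receptor's pathway, the windows of Ahrr, Tiparp, Cyp1b1 and Nqo1 hold the core, with 3, 1, 2 and 1 matches. Those of Cyp1a2, Ugt1a1, Nfe2l2, Fmo1 and Inmt hold none, and the promoters of Cyp1a1 and Aldh3a1 were not analysed here. A match is letters only and no evidence of binding.

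At 19 h the values of Ahr over dose lay between -0.78 and 0.56 on the OpenArray, mostly below the vehicle. A trend with dose passed its test in Long-Evans and did not in Han/Wistar, while the difference between the strains did not pass either (adjusted exact permutation p = 0.533). On the OpenArray the 8 Han/Wistar dose groups stood at -0.54, -0.68, -0.31, -0.04, -0.51, -0.08, -0.45 and -0.06 from 0.001 to 3000 µg/kg in the authors' deposited table. All 8 lay below the corn oil group of that time, and the groups at 10 µg/kg or more spanned -0.51 to -0.06, within the range of the groups at 1 µg/kg or less. The 8 Long-Evans groups stood at -0.36, -0.70, -0.78, -0.36, -0.18, -0.02, 0.56 and -0.17 from 0.001 to 1000 µg/kg in the authors' deposited table. There the 4 groups from 10 µg/kg up were all above the 4 groups up to 1 µg/kg, but 7 of the 8 were below corn oil and only that at 100 µg/kg was above it. Relative to the median over the targets of the platform, Ahr was lower in all 8 dose groups of each strain. Many of those targets passed the dose test themselves, so this median is no unchanged reference.

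Spearman's rho against log10 dose was 0.76 in Long-Evans (two-sided exact permutation over all 40320 orders of the groups, p = 0.0368, adjusted 0.0462 by Benjamini-Hochberg over 49 targets), and in that strain 79.6% of all targets passed (53.1% higher and 26.5% lower). In Han/Wistar rho was 0.57 (exact permutation p = 0.151, adjusted 0.168), where 59.2% of targets passed (38.8% higher and 20.4% lower). Centring each group on its median changed the targets called from 26 higher and 13 lower to 17 and 17 in Long-Evans. For Han/Wistar it changed them from 19 and 10 to 14 and 17. Centring on the mean turned the balance, to 9 and 21 (Long-Evans) and 8 and 20 (Han/Wistar). The Long-Evans call was lost by Pearson's r (0.67, adjusted exact permutation p = 0.0662), with corn oil added as the lowest dose (rho 0.35, 0.359), and with the strains adjusted together (0.0507). It was also lost without any single dose group other than that at 0.001 µg/kg (rho 0.64 to 0.86 over all 8 omissions). The median over the panel was 0.04 at the lowest and 0.54 at the highest Long-Evans dose, and Ahr minus this median ran from -0.80 to -0.02 and gave a rho of -0.21 (adjusted exact permutation p = 0.659). Against the mean of the group rho was -0.76 (adjusted exact permutation p = 0.0515).

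**Figure D1:**
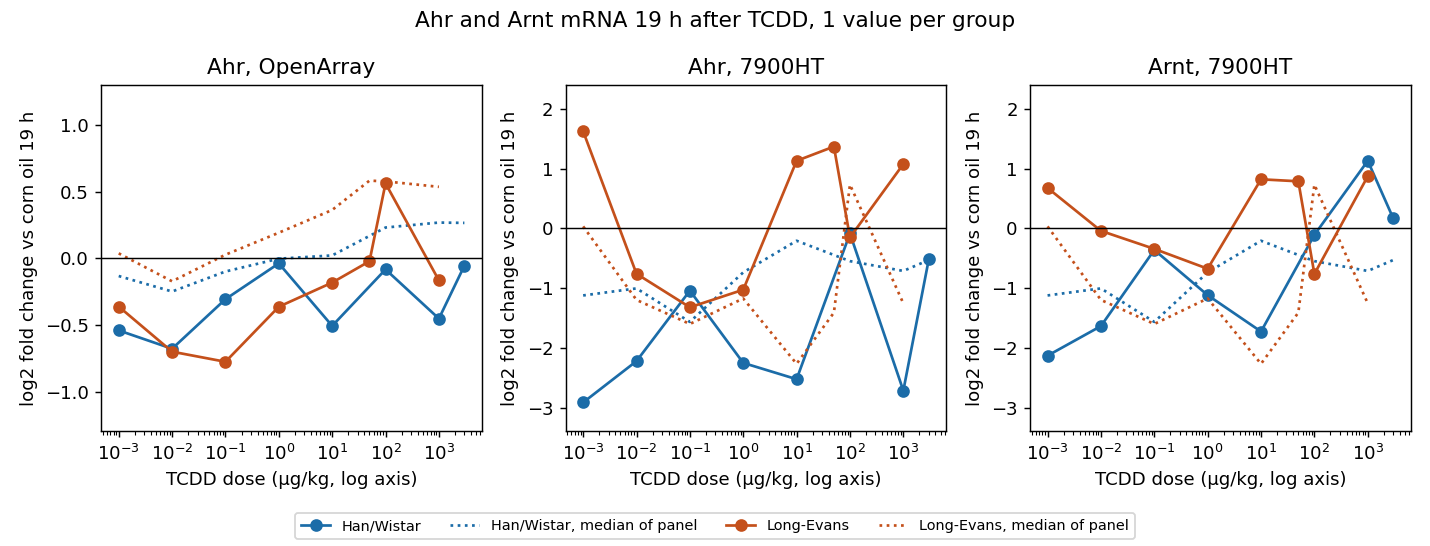
Log2 fold change of Ahr and Arnt against the strain's own 19 h corn oil group (y axis) over TCDD dose in µg/kg (log x axis), 1 point per group with no error bar; dotted lines are the median over the targets of the platform listed in every group. Ahr stays between -0.78 and 0.56 on the OpenArray, whereas on the 7900HT Ahr and Arnt run from -2.91 to 1.62 without an order by dose that both strains share.

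On the 7900HT the same dose groups were spread more widely. Ahr in Han/Wistar stood at -2.91, -2.22, -1.04, -2.25, -2.52, -0.09, -2.72 and -0.52 from the lowest to the highest dose in the authors' deposited table. All 8 were again below corn oil, with the groups at 100 and 3000 µg/kg nearest to it. The panel median was also below 0 in each of these groups, from -1.57 to -0.21, and Ahr was above it in 3 of the 8, at 0.1, 100 and 3000 µg/kg. In the authors' deposited table the Long-Evans groups stood at 1.62, -0.76, -1.32, -1.03, 1.13, 1.37, -0.15 and 1.08, with 4 groups above and 4 below corn oil. Relative to the panel median 7 of the 8 were above, the exception being 100 µg/kg. Spearman's rho was 0.38 in Han/Wistar (adjusted exact permutation p = 0.610), where 2.56% of 39 targets passed. For Long-Evans it was 0.07 (adjusted exact permutation p = 0.930), where 0% passed. In Long-Evans, where no target passed, 5 had an unadjusted exact permutation p under 0.05 and Pearson's r also called 0.

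Arnt in Han/Wistar stood at -2.13, -1.64, -0.36, -1.12, -1.73, -0.11, 1.13 and 0.17 from 0.001 to 3000 µg/kg in the authors' deposited table. The 3 highest doses were the 3 highest values, the groups at 0.1, 1 and 10 µg/kg ran downward, and rho was 0.81 (exact permutation p = 0.0218, adjusted 0.136). In Long-Evans Arnt stood at 0.68, -0.04, -0.34, -0.68, 0.82, 0.79, -0.76 and 0.87 in the authors' deposited table. The lowest dose was thus among the higher groups there, and rho was 0.24 (adjusted exact permutation p = 0.690). Neither member passed on this platform, and when the targets with 4 rows per gene in the raw table (Ahr and Arnt are among these 14) were centred on their own median, the sign of rho turned for both genes in both strains.

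The highest Ahr values of the OpenArray came late in the time arm of Long-Evans, although the test over that whole arm did not pass. On the OpenArray the Long-Evans groups at 100 µg/kg stood at -0.17, -0.13, 0.10, 0.56, 2.03 and 2.20 at 3, 6, 10, 19, 96 and 240 h in the authors' deposited table. The corn oil groups at 96 and 240 h were at 0.42 and -0.29 in the authors' deposited table. From 3 to 10 h Ahr thus lay within the corn oil range, and at 96 and 240 h it was the highest of all Long-Evans groups. Its difference from the corn oil group of equal time was 0.56 (19 h), 1.61 (96 h) and 2.49 (240 h), or 1.48-, 3.05- and 5.62-fold, while the median over the panel was 0.59, 0.94 and 1.09. At 240 h Ahr ranked 15th of 49 targets by this difference. As a scale, Cyp1a1, the classical target of the receptor, was higher by 8.78 at that time on the OpenArray and by 8.97 on the 7900HT. Ahrr was higher by 11.68 on the OpenArray but differed by -6.06 on the 7900HT, so the platforms had opposite signs for this repressor. On the 7900HT some values were extreme even without TCDD. In Han/Wistar corn oil Ahrr stood at -10.89 at 1.5 h and at 7.02 at 96 h, and Aldh3a1 at 23.00 at 384 h. The sign of Ahrr on that platform therefore carries little weight.

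In Han/Wistar the groups at 100 µg/kg stood at 0.63, -0.25, 0.0048, -0.10, -0.08, 0.69, 0.05 and 0.21 at 1.5, 3, 6, 10, 19, 96, 240 and 384 h in the authors' deposited table. The corn oil groups at 1.5, 96, 240 and 384 h stood at -0.21, -0.71, -0.57 and -0.72 in the authors' deposited table. The highest TCDD groups were those at 96 and 1.5 h, and the 3 late corn oil groups were the lowest of the arm. Its difference from the corn oil group of equal time was 0.84, -0.08, 1.40, 0.62 and 0.92 in order of time from 1.5 to 384 h. At 240 h the TCDD group itself was at 0.05 in the authors' deposited table, so it stood near the 19 h control while the corn oil group of its own time was low. All 3 late corn oil groups were low, and which group moved with time cannot be told from these values. The panel median of these differences was 0.30, 0.23, 0.71, 0.55 and 0.60, so at 240 h Ahr stood at the middle of the panel, 23rd of 49.

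**Figure D2:**
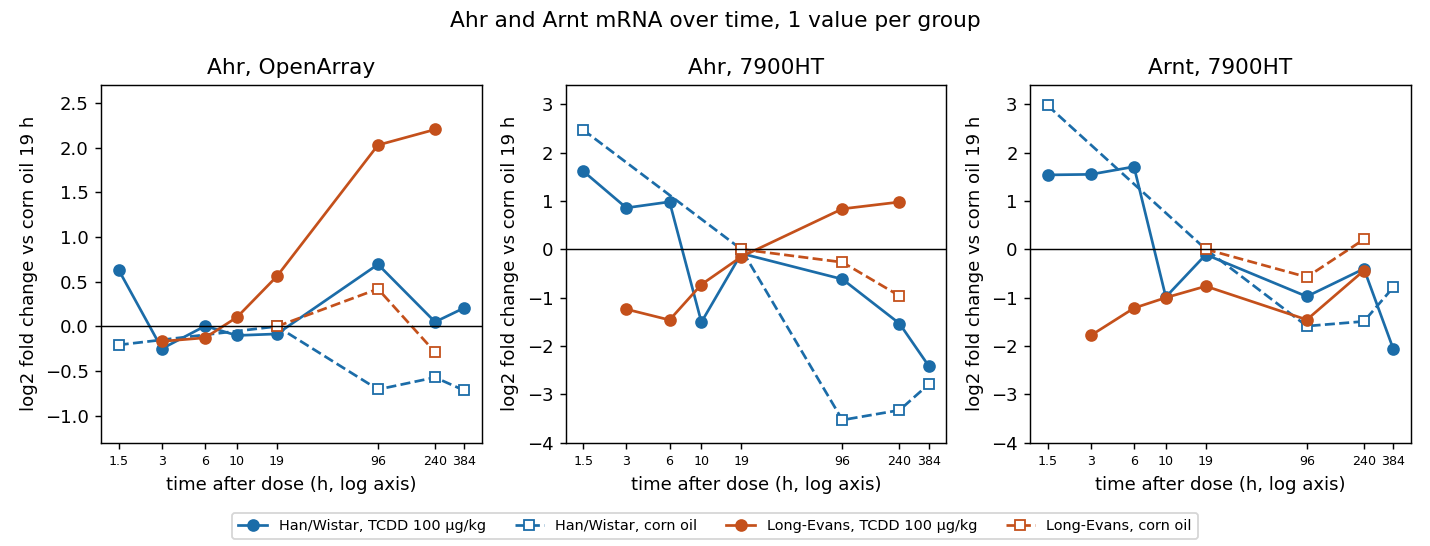
Log2 fold change against the strain's own 19 h corn oil group (y axis) over hours after the dose (log x axis) for TCDD at 100 µg/kg (filled circles) and corn oil (open squares), 1 point per group with no error bar. On the OpenArray Long-Evans Ahr stands at 2.03 and 2.20 at 96 and 240 h, while the Han/Wistar groups stay at or under 0.69.

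Over the whole arm the mean of the TCDD groups minus the mean of the corn oil groups was 0.58 in Han/Wistar (0.14 against -0.44, 8 against 5 groups, two-sided exact permutation p = 0.0132, adjusted 0.0281), and in this strain 55.1% of targets passed (53.1% higher and 2.04% lower, or 26 and 1 targets, against 16 and 12 after centring on the median and 8 and 27 on the mean). The call was lost without the corn oil group at 96, 240 or 384 h, where the adjusted exact permutation p was 0.0647 to 0.0761. Relative to the panel median the difference was 0.14 (adjusted exact permutation p = 0.544), and relative to the mean it was -0.44 (0.137). In Long-Evans the mean difference was 0.72 (0.77 against 0.04, 6 against 3 groups, exact permutation p = 0.274, adjusted 0.312), where 32.7% of targets passed (15 higher and 1 lower, against 11 and 7 after centring on the median and 9 and 19 on the mean). In both strains this test averages the early and late times and does not pair groups by time. The TCDD groups at 3, 6 and 10 h lack a vehicle partner, and most corn oil groups are from 96 h or later. Treatment is therefore mixed with time in these means. At equal times the Han/Wistar difference of Ahr was above 0 at 1.5, 96, 240 and 384 h and below 0 at 19 h. For Long-Evans the mean difference over the 3 times that have both groups was 1.55.

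The 7900HT also had Ahr higher than corn oil of the same time at 96 and 240 h in both strains. The Long-Evans TCDD groups stood at 0.84 and 0.98 at these times and the corn oil groups at -0.27 and -0.96 in the authors' deposited table, differences of 1.10 and 1.94 beside panel medians of 1.25 and 0.59. At 96 h Ahr was thus below the middle of the panel in this strain. For Han/Wistar the TCDD groups at 96, 240 and 384 h stood at -0.62, -1.54 and -2.41 and the corn oil groups at -3.53, -3.33 and -2.79 in the authors' deposited table, differences of 2.91, 1.79 and 0.38 beside panel medians of 0.61, 0.43 and -0.29. At 1.5 h, by contrast, Han/Wistar corn oil stood at 2.47 and TCDD at 1.62 in the authors' deposited table, so both treatments were far higher early than late. The SD of Ahr over the Han/Wistar corn oil groups was 2.60 on this platform, against a median of 0.97 over all targets and 0.32 for Ahr on the OpenArray. The early TCDD groups at 3, 6 and 10 h of the authors' deposited table stood at 0.86, 0.98 and -1.51 (Han/Wistar) and at -1.24, -1.46 and -0.73 (Long-Evans), and no corn oil group was taken at these times. Over the arm the Han/Wistar difference was 1.10 (exact permutation p = 0.331, adjusted 0.445), where 35.9% of targets passed (15.4% higher and 20.5% lower). The Long-Evans difference was 0.12 (exact permutation p = 0.869, adjusted 0.941), where 0% passed. Of the 39 targets in Long-Evans, 16 had an unadjusted exact permutation p under 0.05.

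Arnt lay on the other side of corn oil in Long-Evans, again without passing after adjustment. Its Long-Evans TCDD groups stood at -1.78, -1.22, -1.00, -0.76, -1.46 and -0.44 from 3 to 240 h and the corn oil groups at 0, -0.57 and 0.20 in the authors' deposited table. All 6 TCDD groups were below 0, 5 of them below every corn oil group, and the mean difference was -0.99 (exact permutation p = 0.0357, adjusted 0.116). Relative to the panel median it was -1.62 (adjusted exact permutation p = 0.0464, the smallest unadjusted p that the 84 splits allow being 0.0119). That median itself stood at -0.68, 0.65, 1.06, 0.73, 0.98 and 1.08 from 3 to 240 h after TCDD. In corn oil it was 0, 0.18 and -0.18 at 19, 96 and 240 h. The centred value of Arnt therefore also holds the higher values of other targets after TCDD, and does not by itself show a fall of Arnt. In Han/Wistar Arnt stood at 1.54, 1.55, 1.71, -0.99, -0.11, -0.98, -0.40 and -2.06 from 1.5 to 384 h after TCDD in the authors' deposited table. Corn oil at 1.5, 96, 240 and 384 h stood at 2.98, -1.59, -1.49 and -0.79 in the authors' deposited table. Both treatments were high at 1.5 h and low from 96 h, they overlapped, and the mean difference was 0.21 (exact permutation p = 0.828, adjusted 0.872). The difference of Arnt from the corn oil group of equal time was -1.44, -0.11, 0.61, 1.09 and -1.27 in order of time, with a mean of -0.22 over the 5 times.

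**Figure D3:**
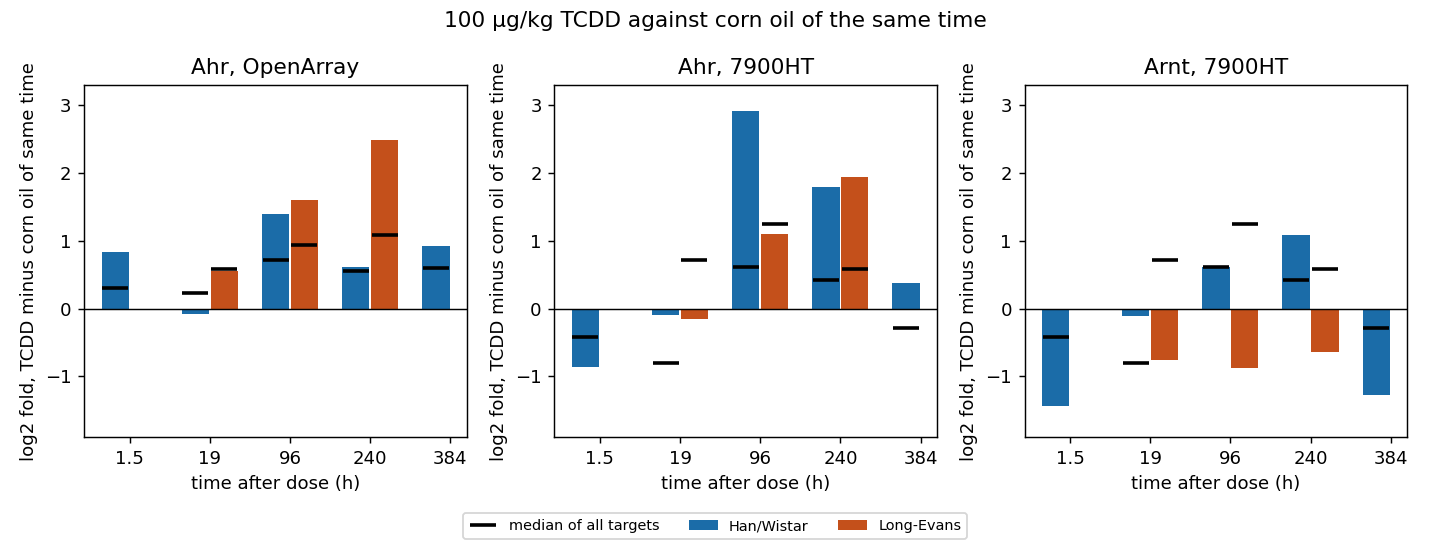
Difference in log2 units between the 100 µg/kg group and the corn oil group of the same strain and time (y axis) by hours after the dose, 1 bar per pair of groups with no error bar; black marks give the median over all targets of the platform. Ahr bars are above 0 at 96 and 240 h in both strains on both platforms, and the Long-Evans Arnt bars are below 0 at 19, 96 and 240 h.

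Ahr and Arnt were measured on the same 7900HT samples, so a factor common to all targets of a group cancels in Ahr minus Arnt. Across groups the pair correlated (Pearson r 0.84 over 19 Han/Wistar groups and 0.60 over 15 Long-Evans groups, as a description, since all groups share a control). At 96 and 240 h after TCDD in Long-Evans Ahr minus Arnt was 2.29 and 1.42, against 0.31 and -1.17 in corn oil. In Han/Wistar it was 0.36, -1.13 and -0.36 at 96, 240 and 384 h after TCDD and -1.94, -1.84 and -2.00 in corn oil. Earlier it was -0.69, -0.73 and -0.52 at 3, 6 and 10 h after TCDD and -0.50 in corn oil at 1.5 h. Over the whole Han/Wistar arm the treatments thus overlapped. TCDD minus corn oil of Ahr minus Arnt was above 0 in all 8 pairs of groups of the same time, from 0.02 at 19 h to 2.30 at 96 h in Han/Wistar and from 0.61 at 19 h to 2.59 at 240 h in Long-Evans. These pairs were examined after the values had been seen. The test over the whole arm gave 0.89 in Han/Wistar (exact permutation p = 0.0513, adjusted 0.205 over 4 tests) and 1.10 in Long-Evans (0.131, adjusted 0.262). Of 13 omissions of a single group in Han/Wistar, 12 did not pass either (values from 0.70, adjusted exact permutation p up to 0.262). The 1 that passed was without corn oil at 19 h, where the difference is 0 by construction (1.20, adjusted exact permutation p = 0.0404). Over dose rho was -0.19 and 0.17 (adjusted exact permutation p = 0.703 for each). The Han/Wistar group at 1000 µg/kg stood apart, at -3.85, with Arnt at 1.13 and Ahr at -2.72 in the authors' deposited table.

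**Figure D4:**
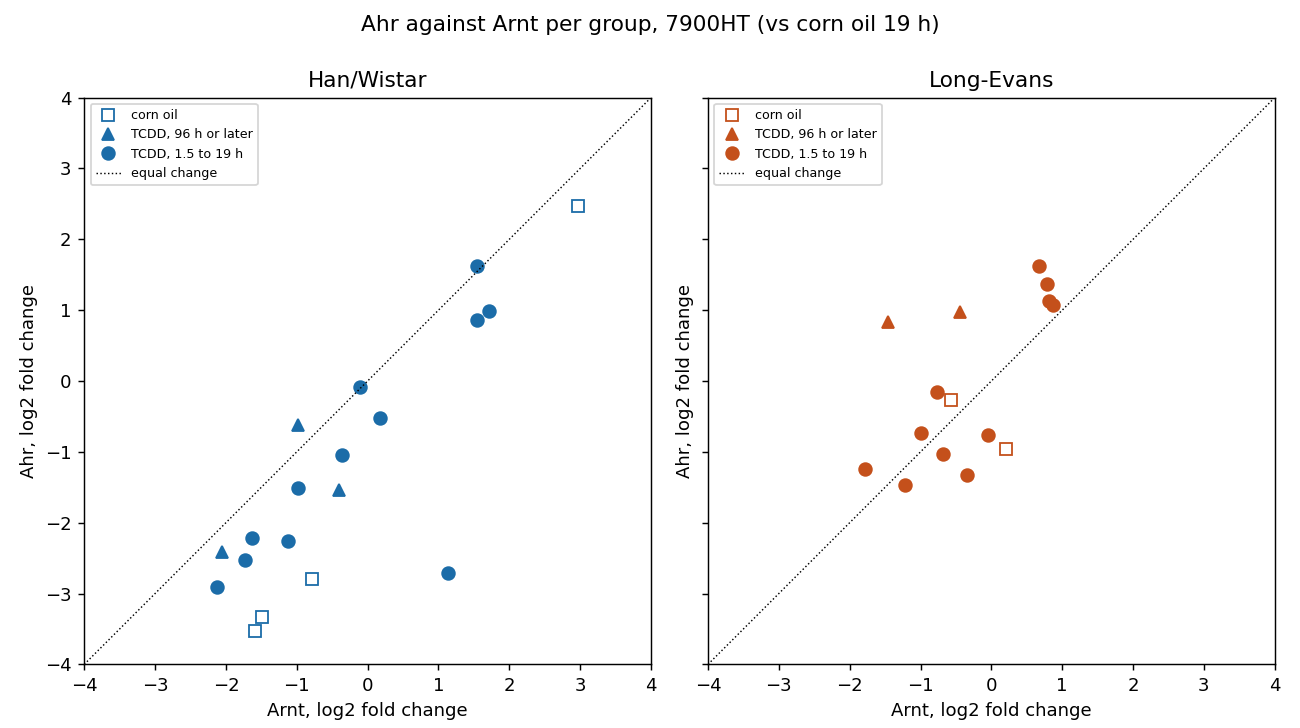
Ahr (y axis) against Arnt (x axis) on the 7900HT, both as log2 fold change against the strain's own 19 h corn oil group, 1 point per group; squares are corn oil, triangles TCDD from 96 h on, circles TCDD up to 19 h, and the dotted line marks equal change. The late Long-Evans TCDD groups lie above the line by 2.29 and 1.42, and the 3 late Han/Wistar corn oil groups lie below it, at -1.94, -1.84 and -2.00.

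The strains share 7 doses and 6 times at 100 µg/kg, over which the Long-Evans value minus the Han/Wistar value was taken. On the OpenArray this difference for Ahr was 0.65 at 100 µg/kg and 19 h, the 5th highest of 49 targets, and it ranged from -0.47 at 0.1 µg/kg to 0.32 at 10 µg/kg over the other shared doses. At 240 h after TCDD it was 2.15, the 3rd highest, and at 96 h it was 1.33, when corn oil itself differed by 1.12. The gap of the response over corn oil of the same time was therefore 0.21 at 96 h and 1.87 at 240 h, beside panel medians of 0.22 and 0.58. On the 7900HT that gap for Ahr was -1.81 at 96 h and 0.15 at 240 h, so the gap at 240 h was far smaller there than on the OpenArray. For Arnt it was -1.49 and -1.73. No strain difference passed: over 7 shared doses rho of the difference for Ahr was 0.57 on the OpenArray and -0.11 on the 7900HT, and for Arnt -0.71 (adjusted exact permutation p = 0.533, 0.888 and 0.874). Over the time arm the values were 0.25, -1.85 and -2.14 (adjusted exact permutation p = 0.831, 0.418 and 0.232). By these tests 0% of targets passed on either platform, where 5 of 48 and 0 of 37 over dose, and 6 of 49 and 8 of 39 over time, had an unadjusted exact permutation p under 0.05. With Pearson's r over dose, 1 target passed on the OpenArray. A test that did not pass does not show equal responses.

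The platforms were compared for Ahr, the member on both. Over the 19 Han/Wistar groups Pearson's r was 0.56 and Spearman's rho 0.63, and over the 15 Long-Evans groups 0.39 and 0.32, as descriptions of groups that share rats and a control. Over the 38 shared targets the median r was 0.40 and 0.48. In the Long-Evans time arm r was 0.96 over 8 groups, and 0.79 when each group was centred on its median. Over the Long-Evans doses it was 0.38, and -0.46 after that centring. The median absolute gap between the platforms was 1.59 in Han/Wistar and 1.07 in Long-Evans.

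**Figure D5:**
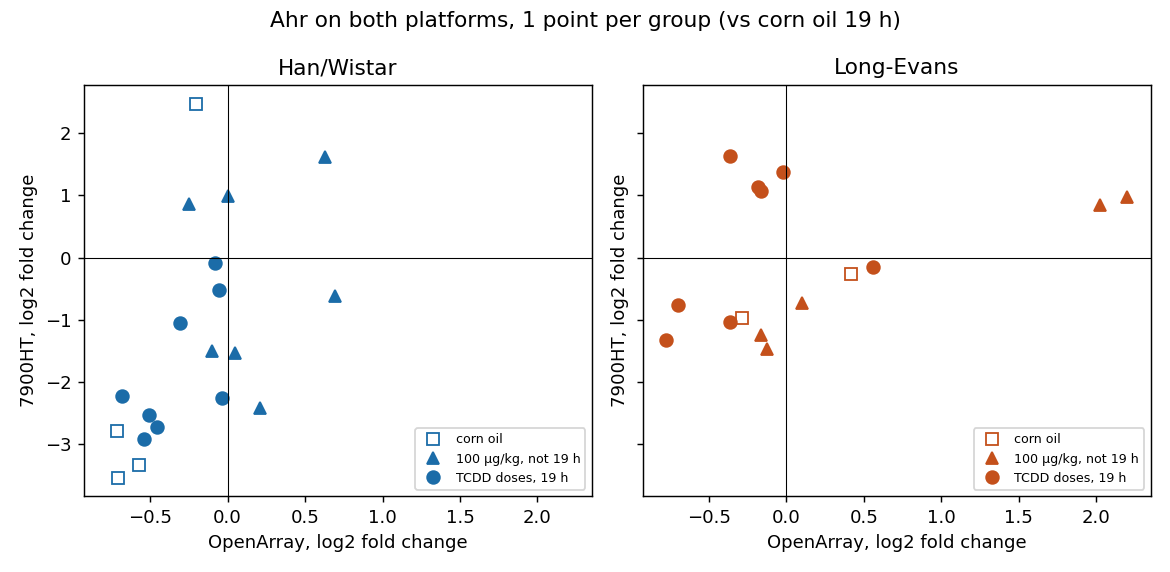
Log2 fold change of Ahr against corn oil at 19 h on the 7900HT (y axis) and on the OpenArray (x axis), 1 point per group, by strain; squares are corn oil, triangles 100 µg/kg at times other than 19 h, and circles the dose groups at 19 h. The Long-Evans time groups follow a line (r 0.96 with corn oil groups), whereas the dose groups spread from -1.32 to 1.62 on the 7900HT over a range of -0.78 to 0.56 on the OpenArray.

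Of the 17 other genes listed for the pathway by role, 11 were measured on each platform. The chaperone genes Hsp90aa1, Hsp90ab1 and Ptges3, the partner Arnt2 and the target Ugt1a6 were not analysed here. Over dose on the OpenArray 6 rose and 3 fell in Han/Wistar and 7 rose and 3 fell in Long-Evans, the 3 being Ugt1a1, which conjugates bilirubin, Fmo1, a flavin monooxygenase, and Inmt, a methyltransferase. Over all targets the Han/Wistar shares were 38.8% higher and 20.4% lower and the Long-Evans shares 53.1% and 26.5%, so the share that fell was near that of the panel. On the OpenArray time arm 8 of the 11 rose in Han/Wistar, namely the repressors Ahrr and Tiparp and the targets Cyp1a1, Cyp1a2, Cyp1b1, Nqo1, Aldh3a1 and Nfe2l2, and Inmt fell, by adjusted exact permutation p, beside 53.1% and 2.04% of all targets. In Long-Evans 7 passed as higher, the same ones without Cyp1b1, and none as lower, beside 30.6% of all targets called higher and 2.04% lower. Cyp1b1 and Inmt did not pass there, with differences of 7.13 (exact permutation p = 0.0238, adjusted 0.0556) and -3.73 (0.0595, adjusted 0.0941). In Han/Wistar, where both passed, these were 7.12 and -3.15, so the missing calls do not show a lack of response. All 7 of the Long-Evans calls were lost in 7 of 9 omissions of a single group. Each omission leaves fewer than the 84 splits and so raises the smallest p that can occur. Such a loss does not by itself measure a weaker difference. The median difference of these 11 was 3.32 (Han/Wistar) and 3.03 (Long-Evans), that over all targets 0.58 and 0.63, and that of Ahr 0.58 and 0.72. The differences of Ahr were thus near the middle of the panel. That middle is no unchanged background, since 53.1% (Han/Wistar) and 30.6% (Long-Evans) of all targets were called higher in this arm. On the 7900HT Cyp1a1, Cyp1a2, Cyp1b1 and Nqo1 rose and Inmt fell over the Han/Wistar time arm, beside 15.4% of all targets called higher and 20.5% lower. Ahrr differed by -7.46 there without passing (adjusted exact permutation p = 0.0788), against 5.39 on the OpenArray. Cyp1b1 alone rose over dose in that strain, beside 2.56% of all targets, and none passed in Long-Evans, where 0% of all targets did. In the Long-Evans time arm Cyp1a1, Cyp1a2 and Tiparp were higher after TCDD, each at the smallest p that the 84 splits allow. That exact permutation p was 0.0119, and it became 0.0663 after adjustment. For these genes the failure to pass therefore does not show a lack of response. The call of Cyp1b1 over dose was lost with Pearson's r, with corn oil as the lowest dose, with joint adjustment and without any 1 of the 8 dose groups.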

How the data were processed

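Liver RNA was reverse-transcribed and measured by real-time PCR on either platform, per the labels' protocols. The authors deposited, per the file headers, 1 value per gene, strain, time and dose, taken as a log2 fold change against the strain's own 19 h corn oil group. The sources used here do not give the reference genes, the averaging over rats or the handling of failed wells. R 2.12.2 is named in the submitters' processing notes. An ending on 4 gene names was removed. The 304 columns of raw cycle values match no sample label and were not used; only target names and rows per gene were read.

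Groups followed the labels, and each group was 1 unit. Dose trends were Spearman's rho over at least 6 TCDD groups at 19 h, time courses the mean of TCDD minus the mean of corn oil groups, and strain tests used matched differences; all p-values are two-sided exact permutations, with Benjamini-Hochberg adjustment over all targets of a strain and platform at 0.05. They measure the spread between groups. The time-course tests do not pair groups by time, so treatment and time are mixed in them on either platform. Members, lists and tests were chosen with earlier results of these data known. Named genes are the members, the pathway list and the 3 targets most like each member. The procedures were tested on simulated data. Alternatives were centring, Pearson's r, the vehicle as lowest dose, joint adjustment, differences within a time and single groups left out. Centring removes the median or mean of a panel whose middle can itself move with treatment, so it gives no unchanged background. Promoters came from RefSeq (GRCr8), where 11 of 13 measured pathway genes matched. Computation used scipy 1.17.1 with numpy 2.4.6 under Python 3.11.15; tables were handled by pandas 2.3.3 and plots by matplotlib 3.10.9.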

Additional observations from a re-analysis of the deposited data

How the results depend on the processing

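Over 22 results on Ahr and Arnt, 52 of 81 alternative values other than omissions of a group kept their direction and their side of the threshold, or moved by less than the SD over corn oil groups. Centring on the group median turned the dose rho of Ahr on the OpenArray to -0.14 in Han/Wistar and -0.21 in Long-Evans, gave a time difference of 0.14 for Ahr in Han/Wistar on the OpenArray (no longer past the threshold), turned that of Ahr on the 7900HT in Long-Evans to -0.52, brought Arnt there to -1.62 (now past the threshold), and turned the strain rho of Ahr on the 7900HT to 0.14. Centring on the group mean turned the dose rho of Ahr to -0.62 and -0.76 on the OpenArray and to -0.12 in Han/Wistar on the 7900HT, turned the time difference of Ahr to -0.44 and -0.39 on the OpenArray and to -0.69 in Long-Evans on the 7900HT, turned that of Arnt to -0.26 in Han/Wistar, brought Arnt to -1.80 in Long-Evans, and turned the strain rho of Ahr on the 7900HT to 0.14. Centring by rows per gene on the 7900HT turned the dose rho to -0.86 and -0.79 for Ahr and -0.36 and -0.62 for Arnt (Han/Wistar and Long-Evans), and the time difference to -0.89 and -1.46 for Ahr and to -1.77 for Arnt in Han/Wistar (adjusted exact permutation p = 0.0117). Corn oil as the lowest dose turned the rho of Ahr in Han/Wistar on the 7900HT to -0.033 and took that in Long-Evans on the OpenArray to 0.35; Pearson's r of 0.67 and joint adjustment (rho 0.76) also lost that call. Differences within a time averaged 1.55 and 0.96 for Ahr in Long-Evans on the OpenArray and the 7900HT and -0.22 for Arnt in Han/Wistar; for Ahr minus Arnt they averaged 1.05 and 1.73, an alternative chosen after seeing the data.

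With single groups left out, the dose rho of Ahr ran from 0.39 to 0.79 and 0.64 to 0.86 on the OpenArray and from 0.07 to 0.64 and -0.071 to 0.61 on the 7900HT (Han/Wistar, then Long-Evans), and that of Arnt from 0.71 to 0.93 and -0.14 to 0.61. The time difference of Ahr ran from 0.51 to 0.69 and 0.44 to 0.91 on the OpenArray and from 0.57 to 2.07 and -0.16 to 0.35 on the 7900HT, and that of Arnt from -0.14 to 1.00 and -1.21 to -0.82. For Ahr minus Arnt the ranges were -0.43 to 0.071 and 0 to 0.75 over dose and 0.70 to 1.20 and 0.66 to 1.40 over time. The strain rho ran from 0.43 to 0.66 for Ahr on the OpenArray, -0.43 to 0.43 on the 7900HT and -0.89 to -0.54 for Arnt, and the strain time difference from -0.042 to 0.57, -2.79 to -1.16 and -2.60 to -1.73. Counts of targets called also moved: 16 over the Long-Evans time arm on the OpenArray fell to 0 in 7 of 9 omissions, 14 in Han/Wistar on the 7900HT fell to 4 without corn oil at 240 h, and over dose on the OpenArray 29 fell to 7 and 39 to 24 without 1 µg/kg; on the 7900HT, 1 in Han/Wistar became 0 with Pearson's r, corn oil as lowest dose, joint adjustment and each of 8 omissions, and 6, 6 and 4 with centring on the median, on the mean and by rows, under which 0 in Long-Evans became 3, 0 and 7; over time, 16 in Long-Evans on the OpenArray became 28 with the mean, 14 in Han/Wistar on the 7900HT became 5 with joint adjustment, and 0 in Long-Evans became 10 with the median or the mean. The cause of these changes was not tested.

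No paired analysis was possible because the tables hold 1 value per gene and group, so replicate numbers of rats could not be used; groups were paired only by time and dose.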

Other observations

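The targets whose values over groups were most like those of Ahr differed by strain and platform; the correlations are descriptions over groups that share rats, plates and a control. On the OpenArray in Long-Evans the 3 highest Pearson r with Ahr over 15 groups were those of Cmkor1, an atypical chemokine receptor (0.95), Cyp2a1, a P450 enzyme (0.93), and Neu1, a lysosomal sialidase (0.88), against a median of 0.49 over 48 targets. Without the TCDD groups at 96 and 240 h these were 0.73, 0.65 and 0.53. After centring each group on its median they were 0.88, 0.82 and 0.74, and 0.37, 0.07 and -0.10 without those groups, so the likeness lay mostly in the late rise. In Han/Wistar the highest were Ahrr (0.67, 17 groups), Pde2a, a phosphodiesterase (0.63), and Cyp1a1 (0.61), against a median of 0.34, and after centring they were Mug1, Ahrr and Col18a1 at 0.42, 0.39 and 0.27.

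On the 7900HT both members were, except for Eml4, most like other targets with 4 raw rows per gene. In Han/Wistar the highest r with Ahr were those of Nfe2l2 (0.94), Ugt1a1 (0.89) and Arnt (0.84), and with Arnt those of Ahr (0.84), Nfe2l2 (0.84) and Ugt1a1 (0.81). The median over 38 targets was -0.31 for Ahr and -0.35 for Arnt there. In Long-Evans Cyp1b1, Tiparp and Ugt1a1 were highest with Ahr (0.91, 0.86 and 0.80) and Ugt1a1, Eml4 and Nfe2l2 with Arnt (0.90, 0.63 and 0.61). After centring each group on its median, Ugt1a1, Nfe2l2 and Eml4 were highest with Ahr in that strain (0.93, 0.90 and 0.87). The r of Ahr with Arnt was then 0.86, and in Han/Wistar the same targets stayed highest for both members. Nfe2l2, the regulator of the antioxidant response, was not among the closest targets of Ahr on the OpenArray in either strain.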
